A study of Mus musculus with 16 samples.

Results

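Pressure overload was compared with sham surgery in cardiomyocytes of mice that had received AAV9-PRODH, an adeno-associated virus of serotype 9 meant to raise proline dehydrogenase (PRODH) in the heart. The comparison takes the 8 AAV9-PRODH libraries of the 16 in the series, by their labels. They fall into PRODH TAC (4 libraries, transverse aortic constriction, an operation that narrows the aorta and loads the left ventricle) and PRODH sham (4 libraries, the operation without constriction), and both carry the labelled genotype PRODH Overexpression. The other 8 libraries, labelled WT and given AAV9-Vector, are Vector TAC and Vector sham (4 each), and serve to test where the response to TAC differed. All mice were C57BL/6, surgery came 3 weeks after injection, and adult cardiomyocytes were isolated 4 weeks after surgery. The overexpression is described as cardiac-specific, but the promoter and the sequence carried by the virus, the age of the animals and the hour of collection are not given in the labels. Whether each library is a separate animal is not stated, and the p-values therefore speak only for the spread among these libraries, part of which may be technical.

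Cardiomyocytes under lasting pressure load enlarge, switch genes of the fetal heart back on and lower genes of fat oxidation and calcium cycling, while fibroblasts around them lay down matrix. Proline dehydrogenase sits in the inner mitochondrial membrane and takes the first step of proline breakdown, handing electrons to the respiratory chain. The next enzyme, encoded by Aldh4a1, makes glutamate.

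The files give estimated read counts for 57010 mouse gene models, of which 14066 passed a filter on low counts and make up the tested genes. Levels below are CPM (a gene's counts scaled to the same total in each library) after TMM scaling, which corrects library size for composition. Changes are log2 fold changes, TAC over sham, from edgeR's quasi-likelihood test over all 16 libraries. The value after ± beside a change is a standard error (SE), derived as the size of the change over the square root of the test's F. A gene is said to have risen or fallen where the Benjamini-Hochberg adjusted p over all tested genes is under 0.05. Total counts were 20264097 to 22680212 in PRODH TAC and 17235609 to 19586978 in PRODH sham. Genes of the mitochondrial genome took 35.5% ± 0.773 of them in PRODH TAC and 39.8% ± 0.403 in PRODH sham (SD, n = 4). Nuclear copies of such genes took a further 19.0% to 19.7% in PRODH TAC and 19.8% to 22.6% in PRODH sham. Outside both kinds lay 9213004 to 10242842 counts in PRODH TAC and 6984916 to 7716176 in PRODH sham, ranges that did not overlap. Of all gene models, 20206 to 20445 had a count in PRODH TAC and 18731 to 19244 in PRODH sham. The first principal component of the 8 libraries (47.7% of the variance) separated the groups, and the second (12.7%) set PRODH sham library 4 apart, at -29.4 against 5.54 to 19.1 in the other sham libraries.

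Prodh (proline dehydrogenase, ENSMUSG00000003526), the gene the virus was meant to raise, was at 13.4, 12.3, 14.7 and 14.2 CPM in PRODH TAC libraries 1 to 4, against 12.6, 14.3, 13.5 and 14.8 CPM in PRODH sham libraries 1 to 4. The groups overlapped and the difference was -0.02 ± 0.10 (edgeR adjusted p = 0.904), though scaled by library size alone it came to 0.36 (adjusted p = 0.00394). In the Vector arm it stood at 7.28 ± 1.18 CPM in Vector TAC and 11.0 ± 0.454 CPM in Vector sham (SD, n = 4), and there it fell (-0.58 ± 0.11, edgeR adjusted p = 2.58e-05), a call lost under library size alone (-0.23, adjusted p = 0.0798). The change under the PRODH virus was higher than under the vector by 0.56 ± 0.14 (edgeR adjusted p = 0.00373). A viral transcript would be counted here only where it matches this mouse gene.

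All 15 cardiomyocyte markers were tested, and together they made up 41466 to 46746 CPM in PRODH TAC and 50958 to 59167 CPM in PRODH sham libraries. Markers of other cells were present at lower sums. Those of fibroblasts came to 811 to 1018 CPM in PRODH TAC and 583 to 637 in PRODH sham, and those of endothelium to 1354 to 1554 CPM in PRODH TAC and 1051 to 1148 in PRODH sham. Myeloid markers came to 252 to 309.9 CPM in PRODH TAC and 240.2 to 282 in PRODH sham. In such bulk libraries more cells of a type and more RNA per cell cannot be told apart.

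In all, 4925 of the 14066 genes were called, or 35.0% of those tested, with 2425 higher (17.2%) and 2500 lower (17.8%) in PRODH TAC. The median change over all tested genes was 0.02. Changes were mostly small: 436 genes rose and 99 fell by at least 1 on the log2 scale, and the called genes had a median size of 0.45. The libraries of the 2 groups did not overlap for 4885 genes (34.7%). Without PRODH sham library 4 the test called 4016 genes, 2300 higher and 1716 lower. Scaled by library size alone, the median of all genes moved to 0.40 and 7875 genes were higher and 311 lower, so falls below that size depend on the scaling and are given beside their count under it.

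The size of the change went with gene length. Genes of up to 500 bases in the deposited table had a median change of -0.38, those above 2000 and up to 3000 bases -0.02 and those over 5000 bases 0.21, and Spearman's rho over the 14066 genes was 0.38, against 0.14 for the same relation in the Vector arm. Within libraries, the rho between a gene's deviation from its mean over all 16 libraries and its length was 0.29 to 0.37 in PRODH TAC and -0.37 to 0.02 in PRODH sham, with the lowest value in PRODH sham library 4. It was -0.07 to 0.12 in Vector TAC and -0.34 to -0.04 in Vector sham, so PRODH sham and Vector sham overlapped and PRODH TAC stood above all other groups. In a fit with each library's length trend taken out, an alternative chosen after seeing the data, 2435 genes were higher and 1521 lower, so 61.6% of calls were higher, against 49.2%. Counts that this changes are given beside the groups below, and its part in the other results was not tested.

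**Figure D1:**
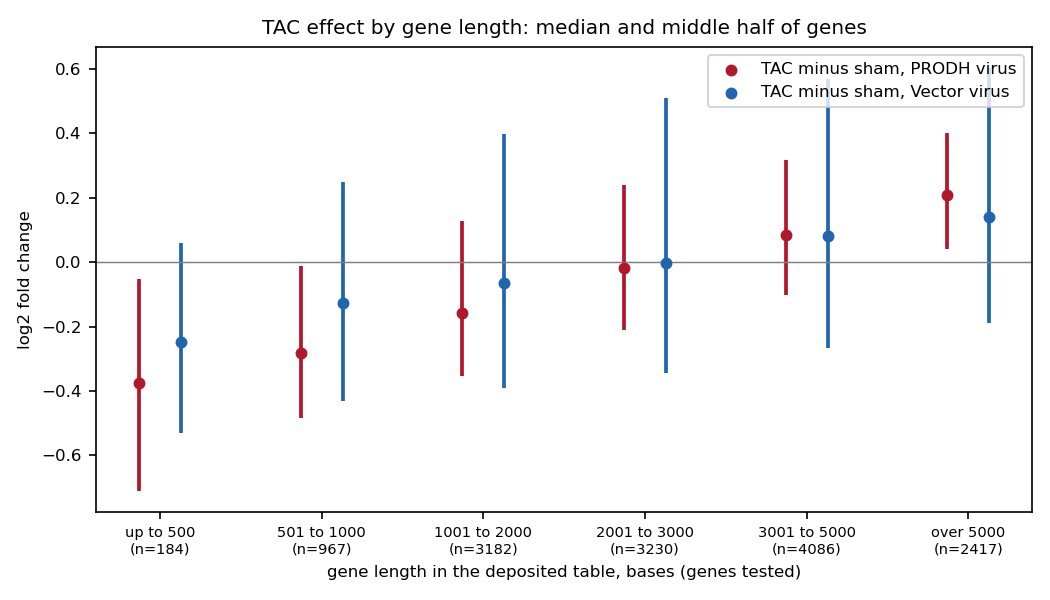
Log2 fold change, TAC minus sham, by gene length in the deposited table (bases), as the median (point) and interquartile range (line) of the genes in each class, for the PRODH arm (red) and the Vector arm (blue). The PRODH medians run from -0.38 in genes of up to 500 bases to 0.21 in genes over 5000 bases, and the Vector medians from -0.25 to 0.14.

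Genes of hypertrophy and wall stress rose under the PRODH virus, where 17.2% of all tested genes rose. Of 22 tested, 16 rose and 1 fell, with a median of 0.66, and no fall was called without PRODH sham library 3 or 4, under library size alone or with the length trend taken out. Nppa, which encodes atrial natriuretic peptide, had 459.6, 422, 429 and 475 CPM in PRODH TAC libraries 1 to 4 and 111, 108, 112 and 139 CPM in PRODH sham libraries 1 to 4, a rise of 1.93 ± 0.09 or 3.81-fold (edgeR adjusted p = 8.07e-16). Every TAC library lay above every sham library by a wide gap. Nppb, the B-type natriuretic peptide gene, had 338, 320.0, 328 and 357 CPM in PRODH TAC and 121, 103, 109 and 129 CPM in PRODH sham, a rise of 1.54 ± 0.07 (edgeR adjusted p = 1.68e-15). Acta1, the skeletal muscle actin of the fetal heart, had 1184, 1193, 1306 and 1424 CPM in PRODH TAC and 352, 394, 422 and 468 CPM in PRODH sham (1.64 ± 0.09, edgeR adjusted p = 5.47e-14). For both genes, too, no TAC library came near the sham range. Ankrd1, a stretch-responsive partner of titin, averaged 1300.4 ± 49.5 CPM in PRODH TAC and 444 ± 27.2 CPM in PRODH sham (SD, n = 4), a rise of 1.55 ± 0.08. Ccn2, a matricellular growth factor, averaged 41.6 ± 1.08 CPM in PRODH TAC and 19.9 ± 1.29 CPM in PRODH sham (1.07 ± 0.07).

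Myh7, the slow myosin of the fetal ventricle, rose less under PRODH than under the vector. It had 20.9, 21.8, 23.3 and 22.8 CPM in PRODH TAC libraries 1 to 4, against 10.9, 10.3, 10.4 and 9.52 CPM in PRODH sham libraries, a rise of 1.11 ± 0.10 (edgeR adjusted p = 3.54e-10). In the Vector arm it had 724, 596, 739 and 784 CPM in Vector TAC and 6.48, 7.41, 8.75 and 8.25 CPM in Vector sham (6.52 ± 0.10). The difference of the 2 changes, -5.41 ± 0.14, was the lowest among genes averaging at least 5 CPM with standard symbols (edgeR adjusted p = 6.99e-23). Nppa differed between the arms by -2.27 ± 0.12, Ccn2 by -2.10 ± 0.10, Acta1 by -0.81 ± 0.13, Nppb by -0.70 ± 0.10 and Ankrd1 by -0.34 ± 0.11, and the edgeR adjusted p was 0.0247 or less for all 5. The call for Ankrd1 was lost under library size alone (-0.32, adjusted p = 0.072) and without PRODH TAC library 2 or 4, PRODH sham library 1, 2 or 3, Vector TAC library 1 or Vector sham library 2, 3 or 4, at -0.25 to -0.32 and adjusted p of 0.0504 to 0.114. Of the 22 genes, 16 had a lower change under PRODH than under the vector by this test, where 15.8% of all tested genes did, and the Vector median was 1.49. The adult fast myosin Myh6 was at 6669.9, 6411, 6623 and 7156 CPM in PRODH TAC and 7174, 7489.8, 7430.0 and 7169 CPM in PRODH sham. The TAC libraries lay just below the sham libraries, and the difference of -0.12 ± 0.08 missed the threshold (edgeR adjusted p = 0.235), but it was called with the length trend taken out (-0.28, adjusted p = 0.00267) and, upwards, under library size alone (0.25, adjusted p = 0.00709). Counts of Myh6 and Myh7, near-identical neighbours, were not whole numbers in 16 libraries, as a counter gives where it divides reads between similar sequences, and likewise for Ankrd1 in 16, Nppa in 15 and Ccn2 in 15 libraries.

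**Figure D2:**
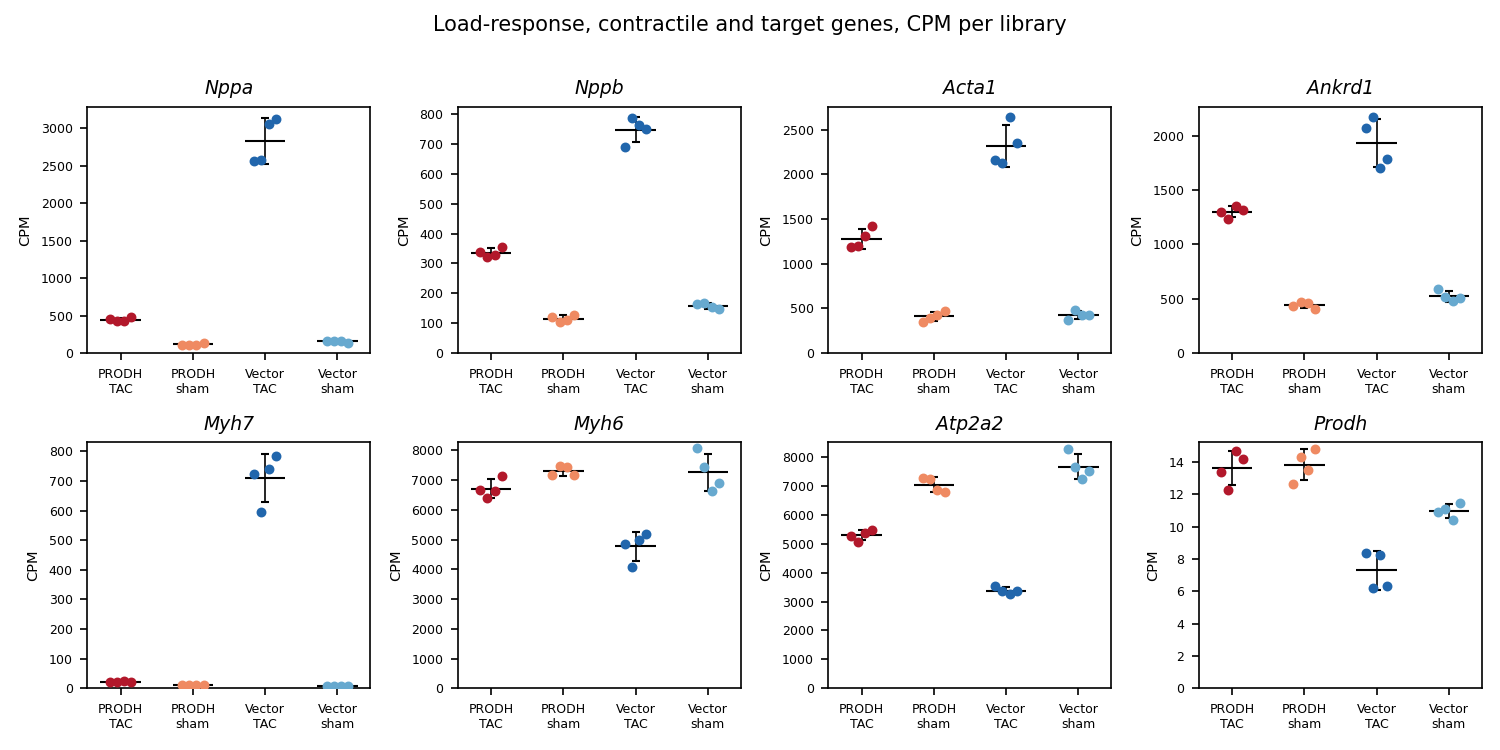
CPM per library (points) of 8 genes in PRODH TAC, PRODH sham, Vector TAC and Vector sham, with the mean (line) and SD (bars) of 4 libraries. Nppa averages 446 CPM in PRODH TAC and 117 in PRODH sham, while Myh7 averages 22.2 in PRODH TAC and 711 in Vector TAC.

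Genes of the adult contractile apparatus fell in part, where 17.8% of all tested genes fell and 17.2% rose. Of 17 tested, 9 fell and 2 rose (median -0.20), but under library size alone 3 fell and 9 rose, with a median of 0.18. Tnni3, cardiac troponin I, had 1819, 1715, 1951 and 2059 CPM in PRODH TAC libraries 1 to 4 and 2710.1, 3132, 3292 and 3816 CPM in PRODH sham libraries 1 to 4 (-0.78 ± 0.09, edgeR adjusted p = 5.98e-08). Tcap, the titin cap of the Z-disc, averaged 594 ± 23.9 CPM in PRODH TAC and 1036 ± 87.2 CPM in PRODH sham (-0.80 ± 0.07), and the ventricular light chain gene Myl2 averaged 4316 ± 273 CPM in PRODH TAC and 6901 ± 1040.5 CPM in PRODH sham (-0.68 ± 0.09, SD, n = 4). For these 3 genes the sham libraries were all higher, and sham library 4 was the highest of them for Tnni3. Troponin T (Tnnt2, -0.50 ± 0.08) and the cardiac light chain kinase Mylk3 (-0.50 ± 0.06) also fell, calls that ended under library size alone. Titin (Ttn), at 0.26 ± 0.08 (edgeR adjusted p = 0.0145), rose while it fell in the Vector arm (-0.38 ± 0.08). Its fall was lost under library size alone (-0.03, adjusted p = 0.83). The rise was lost without PRODH TAC library 3 (0.21, adjusted p = 0.0678) and stood at -0.10 with the length trend taken out. Myl2 fell by more under PRODH than under the vector (difference -0.36 ± 0.13, edgeR adjusted p = 0.0336). That call was lost with the length trend taken out (0.0832 as adjusted p), with median-of-ratios size factors (0.0541) and without any 1 library except PRODH TAC 4, PRODH sham 1, Vector TAC 1 or 2 or Vector sham 2 (adjusted p of 0.0503 to 0.158). The PRODH changes with the length trend taken out were -0.47 for Tnni3, -0.50 for Tcap, -0.33 for Myl2 and -0.23 for Tnnt2.

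Calcium handling and ion channel genes changed less under PRODH than under the vector. Under PRODH 17.2% of all tested genes rose and 17.8% fell. Of 21 tested, 10 fell and 2 rose in the PRODH arm (median -0.15), while 19 fell and 1 rose in the Vector arm (median -0.91), where 30.3% of all tested genes rose and 26.2% fell. The difference was above 0 and called for 17, where 10.9% of all tested genes were. Atp2a2, the calcium pump of the sarcoplasmic reticulum, had 5269, 5069, 5375 and 5475 CPM in PRODH TAC libraries 1 to 4 and 7279, 7227, 6861 and 6781 CPM in PRODH sham libraries 1 to 4. It fell by 0.41 on the log2 scale (edgeR adjusted p = 2.91e-05), against -1.18 ± 0.07 under the vector. Kcnip2, a subunit of the transient outward current (-0.53 ± 0.07), Kcnj2, an inward rectifier (-0.63 ± 0.11), Kcnh2, the rapid delayed rectifier (-0.46 ± 0.08), and Kcnv2, a silent channel subunit (-0.60 ± 0.13), fell as well. Kcna5, another potassium channel gene, rose (0.66 ± 0.10). Under library size alone, which put the list's median at 0.24, none of the list fell and 10 rose. The count of rises was 4 or 5 without PRODH sham library 1 or 2, Vector TAC library 2 or any 1 of the Vector sham libraries.

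Extracellular matrix genes rose together, where 17.2% of all tested genes rose. Of 20 collagen genes tested 18 rose and none fell (median 1.35), as did 20 of 24 matricellular and matrix glycoprotein genes (median 1.27) and 14 of 19 genes of proteoglycans and collagen crosslinking (median 0.68). Postn, periostin of activated fibroblasts, had 49.6, 58.3, 42.5 and 40.7 CPM in PRODH TAC libraries 1 to 4 and 10.6, 11.5, 11.9 and 10.6 CPM in PRODH sham libraries 1 to 4, a rise of 2.10 ± 0.12 (edgeR adjusted p = 1.31e-12). Cilp, a matrix protein of cartilage and heart, had 15, 18.2, 13.5 and 13.8 CPM in PRODH TAC and 2.80, 2.37, 1.49 and 2.50 CPM in PRODH sham (2.72 ± 0.14, edgeR adjusted p = 3.64e-14), the largest rise among genes averaging at least 5 CPM with standard symbols. For either gene no TAC library reached down to the sham range. Of the fibrillar collagens, Col3a1 averaged 121 ± 12.7 CPM in PRODH TAC and 38.9 ± 3.60 CPM in PRODH sham (1.63 ± 0.10) with SD over 4 libraries. Col1a2 averaged 66.3 ± 7.80 CPM in PRODH TAC and 24.0 ± 0.714 CPM in PRODH sham (1.47 ± 0.11), and Col1a1 38.5 ± 2.66 CPM in PRODH TAC and 15.8 ± 1.76 CPM in PRODH sham (1.29 ± 0.12). The short-chain collagen Col8a1 (1.8 ± 0.12), the basement membrane collagen Col15a1 (1.70 ± 0.13) and the microfibril protein Mfap4 (2.04 ± 0.15) were also among the 10 largest rises. Sparc, which binds collagen, averaged 319.7 ± 19.3 CPM in PRODH TAC and 131 ± 7.25 CPM in PRODH sham (1.29 ± 0.08). Fibrillin (Fbn1, 1.56 ± 0.10), biglycan (Bgn, 1.18 ± 0.09), lumican (Lum, 0.99 ± 0.10) and the crosslinking enzyme Loxl2 (1.45 ± 0.12) rose too.

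The matrix genes changed less under PRODH than under the vector, and markers of fibroblasts moved with them. The difference between arms was below 0 and called for 15 of the 20 collagen genes and 21 of the 24 matricellular genes. For all tested genes that share was 15.8%. The Vector medians of these lists were 3.09 and 3.14. Thbs4, a thrombospondin, averaged 6.16 ± 0.921 CPM in PRODH TAC, 1.8 ± 0.459 in PRODH sham, 88.4 ± 11.3 in Vector TAC and 2.24 ± 0.222 in Vector sham, and its changes differed by -3.52 ± 0.24 (edgeR adjusted p = 8.5e-12). Comp, a glycoprotein that binds collagen, averaged 1.01 ± 0.121 CPM in PRODH TAC, 0.538 ± 0.298 in PRODH sham, 34.7 ± 5.37 in Vector TAC and 0.453 ± 0.0856 in Vector sham, a difference of -5.30 ± 0.46 (edgeR adjusted p = 7.2e-10). In the PRODH arm the libraries of Comp overlapped, and its call (0.92 ± 0.30, edgeR adjusted p = 0.017) was lost without sham library 1 or 2 (adjusted p = 0.0652 and 0.0628). Ltbp2, a latent TGF-beta binding protein gene, rose by 2.36 ± 0.24 under PRODH and by 5.58 ± 0.16 under the vector.

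Under PRODH 17.2% of all tested genes rose, the share to set beside the marker counts here. Of 16 fibroblast markers 13 rose and none fell (median 0.86, against 2.00 in the Vector arm), among them Mfap5 (1.48 ± 0.13) and Cd34 (0.88 ± 0.08), which endothelium also expresses. Of 19 endothelial markers 14 rose (median 0.44), with the junction genes Cdh5 at 0.80 ± 0.09 and Cldn5 at 0.93 ± 0.13. In the Vector arm all 19 rose (median 1.06), where 30.3% of all tested genes rose. The difference between the arms was below 0 and called for 14 of the 19 and above 0 for 1, Cldn5. For all tested genes these shares were 15.8% and 10.9%. Of 14 mural markers 11 rose (median 0.59), with smooth muscle myosin Myh11 at 0.87 ± 0.11, at summed levels of 1531 to 1711 CPM in PRODH TAC and 1471 to 1662 in PRODH sham, which overlapped. The collagens Col1a1, Col1a2 and Col3a1 and the proteoglycan Lum are themselves on the fibroblast list. The part of these cells in the matrix rises was not tested. Of 6 red cell and platelet markers 4 rose, while none of 7 glial and mesothelial or 3 adipocyte markers was called. In TGF-beta signalling, 9 of 21 genes rose and none fell, or 6 rose and 1 fell with the length trend taken out and 19 rose under library size alone. Fstl1, a secreted glycoprotein (1.36 ± 0.10), and the ligand gene Tgfb3 (0.80 ± 0.11) were among them. Of the 15 matrix protease and inhibitor genes 8 rose and 1 fell, with the gelatinase Mmp2 at 1.43 ± 0.12, and 13 rose under library size alone.

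Genes of mitochondrial fuel use fell as groups, where 17.8% of all tested genes fell. Of 32 genes that take up or oxidise fatty acids 28 fell and none rose (median -0.53), and under library size alone 14 fell and 2 rose. Acaa2, the last enzyme of the beta-oxidation spiral, had 356, 339, 364 and 403 CPM in PRODH TAC libraries 1 to 4 and 608, 649.7, 659.6 and 745 CPM in PRODH sham libraries 1 to 4 (-0.86 ± 0.07, edgeR adjusted p = 2.42e-10). Ucp3, a mitochondrial carrier of fat-burning muscle, had 14.6, 13.8, 14.8 and 14 CPM in PRODH TAC and 31.0, 27.2, 26.4 and 26.2 CPM in PRODH sham (-0.96 ± 0.08, edgeR adjusted p = 3.25e-10). No TAC library reached the sham range for either gene. Acot1, a fatty acyl-CoA thioesterase, fell by 1.39 and Mlycd, which removes the malonyl-CoA that blocks fat entry, by 0.79 on the log2 scale, with counts of Acot1 not whole in 16 libraries. Ucp3 fell by less than under the vector (difference 1.33 ± 0.12, edgeR adjusted p = 1.38e-09). The difference was above 0 and called for 12 genes of the list and below 0 for 2. For all tested genes these shares were 10.9% and 15.8%. Among 15 regulators of mitochondrial genes, 3 fell and none rose, a share near the 17.8% of all tested genes that fell, against 11 that fell in the Vector arm, where 26.2% of all tested genes fell. Klf15, a regulator of lipid and amino acid use, fell by 0.65. Under library size alone 11 of them rose and 1 fell.

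The respiratory chain and the pathways that feed it fell with them, where 17.8% of all tested genes fell. Of 41 nuclear genes of the respiratory chain 39 fell and none rose (median -0.54, -0.62 in the Vector arm). With the length trend taken out 30 fell (median -0.26), and under library size alone 20 fell and 1 rose. Cox5a, of cytochrome oxidase, had 257, 247, 289.9 and 295 CPM in PRODH TAC libraries 1 to 4 and 390.1, 477, 517 and 591 CPM in PRODH sham libraries 1 to 4 (-0.86 ± 0.09, edgeR adjusted p = 6.17e-08). All sham libraries were higher, with sham library 4 the highest. Cox7a1, the muscle form of another subunit, fell by 0.76 and Ndufs3, of complex I, by 0.66. Of the 13 protein genes of the mitochondrial genome 12 fell (median -0.57), or 7 with the length trend taken out and 5 under library size alone. mt-Nd2, of complex I, averaged 18729 ± 1485 CPM in PRODH TAC and 28729.9 ± 1738 CPM in PRODH sham (-0.62 ± 0.08), with estimated counts not whole in 10 libraries. Their changes with the length trend taken out were -0.49 for Cox5a, -0.36 for Cox7a1, -0.37 for Ndufs3 and -0.33 for mt-Nd2.

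In pyruvate use and the citric acid cycle 20 of 25 genes fell and none rose (median -0.33), but under library size alone 4 fell and 5 rose. Of all tested genes 17.8% fell and 17.2% rose. Idh2, the mitochondrial NADP-linked isocitrate dehydrogenase, averaged 585 ± 34.9 CPM in PRODH TAC and 950.0 ± 64.3 CPM in PRODH sham (-0.70 ± 0.07) and fell by more than under the vector (-0.43 ± 0.10, edgeR adjusted p = 0.00158). Suclg1, of succinyl-CoA ligase, fell by 0.58, and less than under the vector (difference 0.33 ± 0.10, edgeR adjusted p = 0.0138). Across this list the difference was above 0 and called for 14 of the 25 genes and below 0 for 1. For all tested genes these shares were 10.9% and 15.8%. In the Vector arm 24 of the 25 fell (median -0.64), where 26.2% of all tested genes fell. Breakdown of branched-chain amino acids had 21 falls among 22 genes (median -0.39), with the dehydrogenase subunit Bckdhb at -0.75 ± 0.09, and 3 fell and none rose under library size alone. For these 22 genes the difference between the arms was above 0 and called for 14 and below 0 for none. In glucose use 17 of 27 fell and 3 rose, with the heart-type lactate dehydrogenase gene Ldhb at -0.67 ± 0.07 and the platelet-type phosphofructokinase gene Pfkp at 0.58 ± 0.07, while library size alone gave 2 lower and 10 higher. With the length trend taken out Suclg1 was at -0.36 and Ldhb at -0.42.

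Proline and glutamate genes moved both ways. Of 19 tested, 4 rose and 7 fell (median -0.06, and 0.31 under library size alone, where 10 rose and 2 fell). Of all tested genes 17.2% rose and 17.8% fell, so the share of rises was near that of all genes. Aldh4a1 had 45.4, 45.1, 49.8 and 47.8 CPM in PRODH TAC libraries 1 to 4 and 62.9, 63.8, 64.1 and 58.6 CPM in PRODH sham libraries 1 to 4 (-0.41 ± 0.08, edgeR adjusted p = 0.000107), and all TAC libraries lay below all sham libraries. The call ended under library size alone (-0.03). The transaminase genes Got1, which links glutamate and aspartate, and Gpt, which links glutamate and alanine, were at -0.58 ± 0.07 and -0.72 ± 0.09. These counts rest on single libraries. Without PRODH TAC library 2 1 rose and 6 fell, and without PRODH sham library 1 5 rose and 4 fell. Without PRODH sham library 2 3 rose and 4 fell, and without PRODH sham library 4 2 rose and 6 fell.

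Interferon-response genes rose after TAC in PRODH hearts. Of 39 tested, 37 rose and none fell, where 17.2% of all tested genes rose, with a median of 1.18 against 0.02 over all genes. In the Vector arm 36 of the 39 rose and none fell (median 0.80), where 30.3% of all tested genes rose. These genes are switched on by interferons, in part through IRF factors, which bind elements made of 2 copies of GAAA set 2 bases apart. Ifit1, which binds foreign RNA, had 55.3, 55.8, 58.2 and 53.9 CPM in PRODH TAC libraries 1 to 4 and 13.1, 16.4, 11.1 and 14.3 CPM in PRODH sham libraries 1 to 4, a rise of 2.02 ± 0.10 or 4.07-fold (edgeR adjusted p = 1.68e-15). Ifi44, an interferon-induced gene of less clear function, had 22.5, 22, 21.3 and 17.8 CPM in PRODH TAC and 5.66, 4.92, 6.93 and 5.06 CPM in PRODH sham (1.88 ± 0.12, edgeR adjusted p = 3.08e-13). Irf7, a factor that drives the interferon genes themselves, had 69.9, 75.1, 68.4 and 76.3 CPM in PRODH TAC and 29.5, 30.9, 31.4 and 33.8 CPM in PRODH sham (1.21 ± 0.08, edgeR adjusted p = 1.64e-12). For all 3 the lowest TAC library was above the highest sham library by more than the range of either group. Ifit2 (1.61 ± 0.10), Ifit3 (1.5 ± 0.08), the RNA helicase gene Ddx60 (1.70 ± 0.13) and Usp18, which ends interferon signalling (1.6 ± 0.10), rose as well. Counts of Ifit3, which has a close copy, were not whole in 16 libraries.

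Some interferon genes rose by more under PRODH than under the vector and others by less. The difference was above 0 and called for 16 of the 39, and below 0 for 8, where 10.9% and 15.8% of all tested genes were. Ifit1 averaged 55.8 ± 1.8 CPM in PRODH TAC and 13.7 ± 2.22 in PRODH sham, against 5.53 ± 0.997 in Vector TAC and 3.13 ± 0.263 in Vector sham, and its changes differed by 1.19 ± 0.18 (edgeR adjusted p = 8.05e-06). For Ifi44 the difference was 1.68 ± 0.20, for Ddx60 1.65 ± 0.24, for Ifit2 0.94 ± 0.15, for Irf7 0.88 ± 0.12 and for Usp18 0.72 ± 0.18, and the edgeR adjusted p was 0.00325 or less for all 5. Igtp, an immunity-related GTPase, went the other way, with 39.0 ± 1.09 CPM in PRODH TAC, 30.4 ± 1.52 in PRODH sham, 45.6 ± 0.885 in Vector TAC and 16.3 ± 1.24 in Vector sham, and a difference of -1.13 ± 0.10 (edgeR adjusted p = 7.2e-10). The summed level of the list was 1226 to 1333 CPM in PRODH TAC and 682 to 742 in PRODH sham, against 663 to 731 in Vector TAC and 389 to 434 in Vector sham, so the range of PRODH sham overlapped that of Vector TAC.

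Promoters of 3 of these genes are printed with each match to this element (GAAA, any 2 bases, GAAA), on either strand, in capitals. They come from RefSeq (GRCm38.p6), 250 bases before to 50 bases after the gene start, and show how near the start the element lies: Ifit1 (chr19:34640639-34640938, plus strand) and Ifit3 (chr19:34583279-34583578, plus strand) rose by over 1 on the log2 scale and Igtp (chr11:58199306-58199605, plus strand) by 0.36.
Ifit1: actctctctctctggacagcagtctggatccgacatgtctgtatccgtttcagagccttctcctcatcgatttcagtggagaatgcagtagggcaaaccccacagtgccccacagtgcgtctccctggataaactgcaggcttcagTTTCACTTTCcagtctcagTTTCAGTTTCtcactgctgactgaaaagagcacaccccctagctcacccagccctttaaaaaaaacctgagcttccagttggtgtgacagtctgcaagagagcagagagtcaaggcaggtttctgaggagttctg
Ifit3: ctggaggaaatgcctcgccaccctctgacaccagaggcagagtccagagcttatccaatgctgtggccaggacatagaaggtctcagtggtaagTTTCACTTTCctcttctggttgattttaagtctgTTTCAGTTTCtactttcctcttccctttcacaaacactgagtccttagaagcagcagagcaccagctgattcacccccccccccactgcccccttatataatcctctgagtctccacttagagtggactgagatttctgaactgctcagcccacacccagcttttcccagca
Igtp: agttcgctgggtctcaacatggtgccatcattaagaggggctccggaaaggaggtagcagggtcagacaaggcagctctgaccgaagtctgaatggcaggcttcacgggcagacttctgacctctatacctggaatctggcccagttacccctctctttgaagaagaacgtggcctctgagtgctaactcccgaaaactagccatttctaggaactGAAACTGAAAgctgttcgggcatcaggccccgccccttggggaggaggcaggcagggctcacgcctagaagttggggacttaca
The matches start 104 and 85 bases before the gene start in Ifit1 and 156 and 122 bases before it in Ifit3, all on the opposite strand, and 34 bases before it in Igtp, on the gene's strand. Of 30 tested interferon genes with a RefSeq promoter 17 held the element, against 3.44% of all 32851 promoters in the table. The list was counted by gene, but that background by promoter and over genes tested or not. None of 18 hypertrophy, 22 cell cycle or 16 collagen genes with a promoter held the element. A match is a description of these letters and not a site of binding.

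Few markers of immune cells were called beside these genes. Of all tested genes 17.2% rose and 17.8% fell under PRODH, and 30.3% rose under the vector. Of 21 myeloid markers 2 rose and none fell in the PRODH arm (median 0.24), or 8 rose with the length trend taken out and 16 under library size alone, and 19 rose in the Vector arm (median 1.27). Without 1 library 4 rose (PRODH sham 3 or 4, Vector sham 2 or 4), 6 rose (Vector sham 1 or 3), or 1 rose and 1 fell (PRODH TAC 2). The complement gene C1qb of macrophages had 25.4, 29.4, 24.8 and 25.7 CPM in PRODH TAC libraries 1 to 4 and 22.5, 19.1, 23.3 and 25.2 CPM in PRODH sham libraries 1 to 4, and the groups overlapped (0.22 ± 0.10, edgeR adjusted p = 0.0674). It was called as a rise without PRODH sham library 4 or any 1 Vector sham library (0.26 to 0.32), with the 8 AAV9-PRODH libraries alone or no filter on low counts (0.24 for both), with the length trend taken out (0.51) and under library size alone (0.61). Of 12 lymphoid markers only Cd4 passed the filter, at 0.370 ± 0.317 CPM in PRODH TAC and 0.252 ± 0.161 CPM in PRODH sham. Of 25 genes of inflammation and chemokines 3 rose, including the interferon-induced chemokine genes Cxcl9 (0.68 ± 0.13) and Cxcl10 (1.10 ± 0.28), and 3 fell, a count that was 1 without PRODH TAC library 3, PRODH sham library 3 or Vector sham library 4. Both shares were below those of all tested genes. Under library size alone 11 rose and none fell, and with the length trend taken out 4 rose and none fell. Of 20 genes of complement and antigen presentation 6 rose, against 19 in the Vector arm. Without Vector sham library 1 10 rose and 1 fell, and without PRODH TAC library 2 4 rose and 1 fell. Under library size alone 12 rose. The part of immune cells in the interferon rises was not tested.

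Cell cycle genes rose from low levels, where 17.2% of all tested genes rose under PRODH. Of 28 tested, 18 rose and none fell, with a median of 0.71 in both arms. Top2a, the topoisomerase of dividing cells, had 7.2, 7.85, 6.54 and 6.30 CPM in PRODH TAC libraries 1 to 4 and 1.63, 1.81, 0.802 and 1.18 CPM in PRODH sham libraries 1 to 4 (2.36 ± 0.18, edgeR adjusted p = 3.08e-11). Mki67, the proliferation marker Ki-67, had 9.13, 7.85, 6.01 and 7.01 CPM in PRODH TAC and 1.58, 2.74, 1.55 and 1.45 CPM in PRODH sham (2.04 ± 0.18, edgeR adjusted p = 1.07e-09). Cdk1, the mitotic kinase, averaged 3.00 ± 0.248 CPM in PRODH TAC and 0.503 ± 0.151 CPM in PRODH sham (2.56 ± 0.25). None of the TAC libraries overlapped with a sham library for these 3 genes. Their changes were larger than under the vector, by 1.15 ± 0.26 for Top2a (edgeR adjusted p = 0.00126), 1.20 ± 0.27 for Mki67 (0.00118) and 1.01 ± 0.36 for Cdk1 (0.0359). The difference for Cdk1 was no longer called without PRODH TAC library 3, PRODH sham library 2 or 3, Vector TAC library 1 or Vector sham library 3 (adjusted p of 0.0596 to 0.0941). Ccne2, a cyclin of the entry into DNA replication, rose by 0.61 ± 0.17 under PRODH and fell by 0.66 under the vector, with estimated counts not whole in 12 libraries. Its fall was no longer called under library size alone (-0.30, adjusted p = 0.182). The difference was above 0 and called for 4 of the list and below 0 for none, a share near the 10.9% of all tested genes with a difference called above 0. Which cells carry these transcripts was not tested, and endothelial, mural and fibroblast markers rose in the same libraries, by the counts given above.

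Atrial genes rose under PRODH, where 17.2% of all tested genes rose. Of 11 tested atrial and conduction genes 7 rose and 1 fell (median 0.39), and no fall was called without PRODH sham library 4, under library size alone or with the length trend taken out. Myl7, the atrial regulatory light chain, had 30.0, 31.7, 27.7 and 31.4 CPM in PRODH TAC libraries 1 to 4 and 12.8, 14.6, 17 and 18.7 CPM in PRODH sham libraries 1 to 4 (0.94 ± 0.10, edgeR adjusted p = 2.44e-08), against 19.2 ± 1.90 in Vector TAC and 18.9 ± 2.30 in Vector sham. Myl4, the atrial essential light chain, had 48.8, 44.0, 41.4 and 46.8 CPM in PRODH TAC and 15.7, 17.5, 17.9 and 21.1 CPM in PRODH sham (1.33 ± 0.09, edgeR adjusted p = 1.51e-12). The groups did not overlap for either gene. Sln, sarcolipin, which restrains the calcium pump in atrial cells, rose by 1.12 ± 0.13. The changes exceeded those under the vector by 0.92 ± 0.14 for Myl7, 0.88 ± 0.12 for Myl4 and 0.85 ± 0.19 for Sln (edgeR adjusted p = 0.00101 or less). In the Vector arm 5 of the 11 rose and 3 fell (median 0.27), where 30.3% of all tested genes rose and 26.2% fell. The summed level of the list was 107 to 122 CPM in PRODH TAC and 59.3 to 75.4 in PRODH sham. It was 92.9 to 102.8 CPM in Vector TAC and 75.3 to 92.5 in Vector sham, so PRODH sham stood lowest on average. More atrial cells and more atrial transcript per cell cannot be told apart.

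Genes of the circadian clock changed, in a way that differed in part between the arms. Under PRODH 17.2% of all tested genes rose and 17.8% fell. Of 15 clock output genes 8 fell and 1 rose (median -0.43), or 3 fell and 6 rose under library size alone. Of 14 genes of the core loop 5 rose and 4 fell, or 9 and 1 under library size alone. In the Vector arm 8 output genes rose and 6 fell, and 11 core genes rose and 2 fell. There 30.3% of all tested genes rose and 26.2% fell. The difference was below 0 and called for 8 output and 8 core genes, and above 0 for 3 and 1. For all tested genes these shares were 15.8% and 10.9%. Dbp, a factor driven directly by the clock, had 14.9, 13.9, 14.7 and 16.1 CPM in PRODH TAC libraries 1 to 4 and 44.0, 48.9, 53 and 56.8 CPM in PRODH sham libraries 1 to 4, the largest fall among genes averaging at least 5 CPM with standard symbols (-1.77 ± 0.08, edgeR adjusted p = 8.07e-16). Nr1d1, the repressor REV-ERB alpha, had 7.36, 8.10, 8.37 and 6.65 CPM in PRODH TAC and 22.1, 23.7, 23 and 23.1 CPM in PRODH sham (-1.59 ± 0.09, edgeR adjusted p = 1.22e-13). All 4 sham libraries were above the TAC libraries for both. Arntl, which encodes the activator BMAL1, rose (0.99 ± 0.19). In the Vector arm Dbp averaged 11.8 ± 0.739 CPM in Vector TAC and 19.3 ± 0.947 in Vector sham, so the PRODH sham libraries stood highest of the 4 groups. Nr1d1 averaged 13.1 ± 1.40 CPM in Vector TAC and 28.5 ± 2.52 in Vector sham, where it was highest of the 4 groups. Both genes thus fell under the vector too, Dbp by 0.71 and Nr1d1 by 1.13 on the log2 scale. Counts of Dbp and Nr1d1 were not whole in 16 libraries.

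Ciart, a repressor of the clock, moved in opposite directions in the arms. It had 0.764, 1.12, 1.02 and 1.22 CPM in PRODH TAC libraries 1 to 4 and 2.92, 3.05, 2.52 and 3.09 CPM in PRODH sham libraries 1 to 4 (-1.48 ± 0.21), against 1.32, 1.25, 1.57 and 1.08 CPM in Vector TAC and 0.996, 0.609, 0.604 and 0.476 CPM in Vector sham (0.99 ± 0.26), and the changes differed by -2.47 ± 0.33 (edgeR adjusted p = 1.43e-06). Per2, of the negative limb, averaged 6.50 ± 0.632 CPM in PRODH TAC and 8.97 ± 1.27 in PRODH sham, against 8.95 ± 1.16 in Vector TAC and 2.37 ± 0.690 in Vector sham, a difference of -2.41 ± 0.21 (edgeR adjusted p = 7.2e-10), and its fall under PRODH (-0.47 ± 0.13) came with libraries that overlapped and was lost under library size alone (-0.09, adjusted p = 0.607). Bhlhe40, another repressor, differed by -0.94 ± 0.11. For Ciart and Per2 the PRODH sham libraries were all above the Vector sham libraries. The hour at which each group was collected is not given, so time of day and treatment cannot be told apart here. Activators of the clock bind the E-box CACGTG, which 5 of 11 tested clock output genes with a RefSeq promoter held, against 7.15% of all promoters. That background was again counted by promoter and over genes tested or not. The E-box was also in 2 of 11 genes of the core loop, 2 of 18 hypertrophy and 3 of 22 cell cycle genes with a promoter, and in none of 30 interferon or 16 collagen genes. The promoter of Ciart (chr3:95882179-95882478, minus strand, GRCm38.p6) is printed 5′ to 3′ with its E-boxes in capitals, since Ciart is the clock gene with the widest gap between the arms.
Ciart: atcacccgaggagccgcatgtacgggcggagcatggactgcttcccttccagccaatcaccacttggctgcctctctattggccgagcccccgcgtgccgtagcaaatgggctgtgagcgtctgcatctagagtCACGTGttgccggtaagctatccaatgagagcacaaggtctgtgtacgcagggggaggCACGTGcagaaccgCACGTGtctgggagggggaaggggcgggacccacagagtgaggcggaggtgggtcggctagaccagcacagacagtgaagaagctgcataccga
The 3 E-boxes start 116, 58 and 44 bases before the gene start. E-boxes read the same on both strands.

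**Figure D3:**
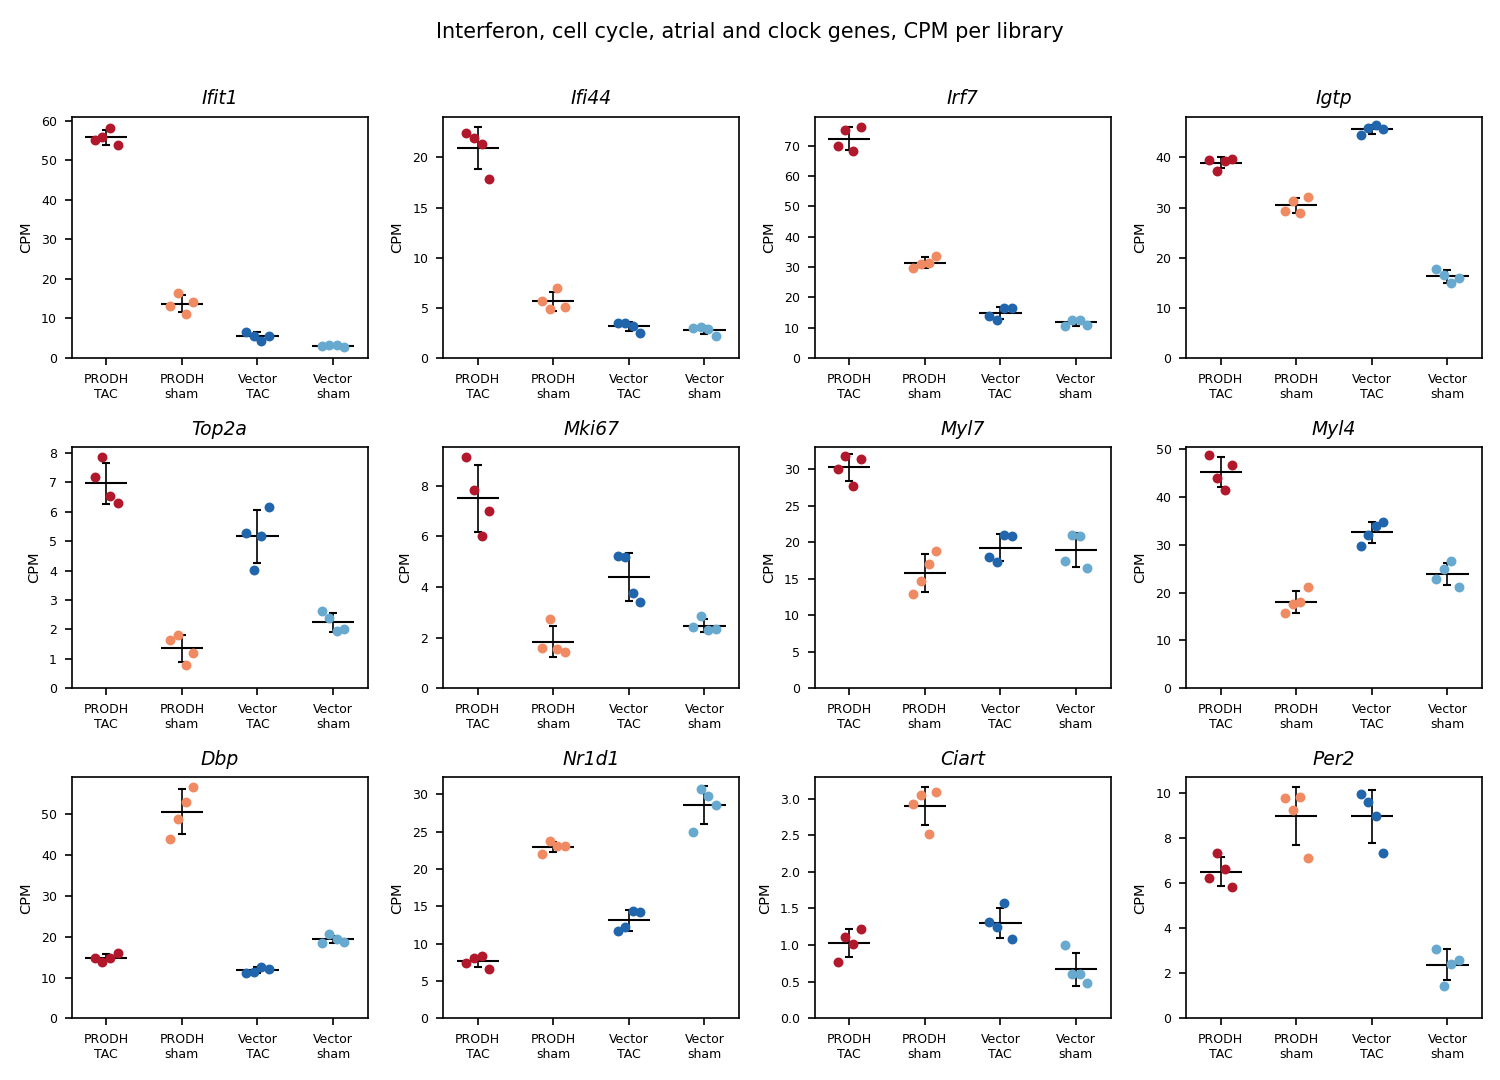
CPM per library (points) of 12 interferon, cell cycle, atrial and clock genes in PRODH TAC, PRODH sham, Vector TAC and Vector sham, with mean (line) and SD (bars) of 4 libraries. Ifit1 averages 55.8 CPM in PRODH TAC and 5.53 in Vector TAC, and Dbp 14.9 in PRODH TAC and 50.7 in PRODH sham.

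Ribosomal protein genes fell in the PRODH arm, a count that depends on the length trend and the scaling. Of all tested genes 17.8% fell under PRODH and 26.2% under the vector. Of 36 ribosomal protein genes tested, 28 fell and none rose (median -0.39), while 3 fell and 2 rose in the Vector arm. Their median length in the table was 869 bases, against 2824 for all tested genes. With the length trend taken out 8 fell and 4 rose (median -0.05), and under library size alone 2 fell and 8 rose. Rplp2, of the ribosome's stalk, had 49.5, 50.8, 55.7 and 63.5 CPM in PRODH TAC libraries 1 to 4 and 75.7, 91.2, 96.3 and 115 CPM in PRODH sham libraries 1 to 4 (-0.78 ± 0.10), with sham library 4 the highest and estimated counts not whole in 16 libraries. Its change with the length trend taken out was -0.48.

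Genes of 3 stress lists fell in larger shares than the 17.8% of all tested genes, by counts that depend on the scaling. Of 20 genes of the endoplasmic reticulum 11 fell and 2 rose, with Herpud1, of protein degradation there, at -0.62 ± 0.07. That count of falls was 5 to 7 without PRODH TAC library 2, PRODH sham library 1, 3 or 4, or Vector sham library 3 or 4, 7 with no filter on low counts, 4 with the length trend taken out and 1 under library size alone, with 9 rises. Of 20 heat shock genes 10 fell and none rose, but 8 rose and none fell under library size alone, with Hsph1, a chaperone partner, at -0.56 ± 0.08 and at -1.44 ± 0.08 in the Vector arm. Of 28 antioxidant genes 15 fell and 1 rose, or 8 and 3 with the length trend taken out and 4 and 10 under library size alone. Sod1, the cytosolic superoxide dismutase gene, was at -0.76 ± 0.09. Of 24 immediate early genes 7 rose and 5 fell, or 16 and 0 under library size alone. Of all tested genes 17.2% rose and 17.8% fell, and the share of falls here was near that. Ier3, an early gene of cell survival, was at -0.53 ± 0.10 in the PRODH arm and 0.76 ± 0.10 in the Vector arm. Its changes differed by -1.29 ± 0.14 (edgeR adjusted p = 4.56e-08). Taking out the length trend put the PRODH changes at -0.40 for Sod1 and -0.25 for Ier3.

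**Figure D4:**
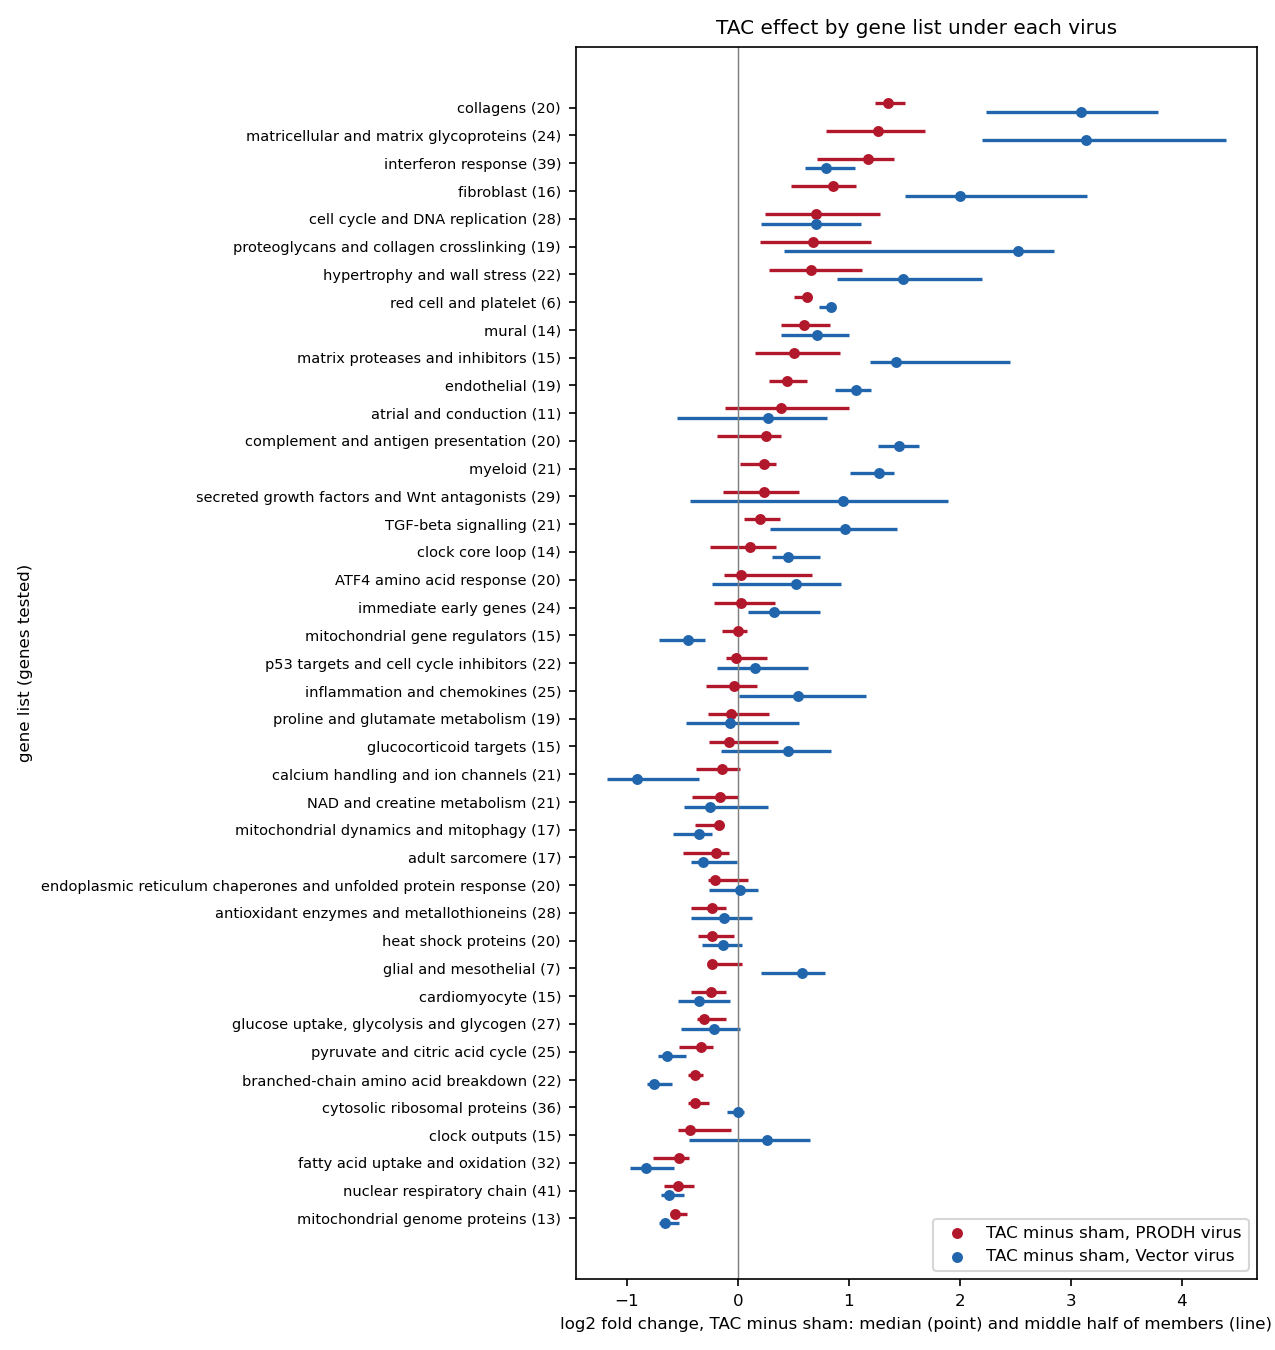
Median (point) and interquartile range (line) of the log2 fold change, TAC minus sham, for gene lists with at least 5 tested genes, in the PRODH arm (red) and the Vector arm (blue), ordered by the PRODH median. Collagens are highest at 1.35 and mitochondrial genome proteins lowest at -0.57, and under library size alone the medians of the sarcomere, calcium and citric acid cycle lists, among others below 0, are above 0.

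Across all genes, fewer were called under PRODH than under the vector, and the calls overlapped in part. In the Vector arm 7949 genes were called (56.5%), 4263 higher and 3686 lower, with 1763 rises and 482 falls of at least 1 on the log2 scale. Of the 4925 PRODH calls 71.4% were called in the same direction there, which is 44.3% of the Vector calls, and 136 were called in opposite directions. The median size of the change over all genes was 0.25 under PRODH and 0.39 under the vector, and Pearson's r between the 2 changes was 0.58 across genes, which are not independent. The arms share no library. The test of the difference called 3764 genes (26.8%), 1540 with a higher and 2224 with a lower change under PRODH. Of the 2425 genes that rose under PRODH 692 had a lower and 233 a higher change than under the vector, and of the 2500 that fell 357 had a higher and 338 a lower one. For 3305 PRODH calls no difference between the arms was called.

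A few genes stood at the ends of this difference. Klhl33, a Kelch-like gene, averaged 9.98 ± 0.640 CPM in PRODH TAC and 15.1 ± 1.71 in PRODH sham, against 2.56 ± 0.445 in Vector TAC and 16 ± 1.58 in Vector sham, the highest difference among genes averaging at least 5 CPM with standard symbols (2.03 ± 0.16, edgeR adjusted p = 1.36e-10). Gpr22, a G protein-coupled receptor gene of the heart, had 31.3, 28.6, 27.0 and 27.1 CPM in PRODH TAC libraries 1 to 4 and 34.4, 28.3, 25 and 24.0 CPM in PRODH sham libraries 1 to 4. The groups overlapped (0.03 ± 0.17, edgeR adjusted p = 0.922), while the gene fell by 1.71 under the vector. Nmrk2, a nicotinamide riboside kinase gene of stressed muscle, rose by 1.05 ± 0.14 under PRODH and by 3.44 ± 0.12 under the vector. Mest, an imprinted gene of fetal growth, was among the 10 largest rises (1.83 ± 0.16) and rose by more than under the vector (difference 1.00 ± 0.23, edgeR adjusted p = 0.0017), with estimated counts not whole in 16 libraries.

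**Figure D5:**
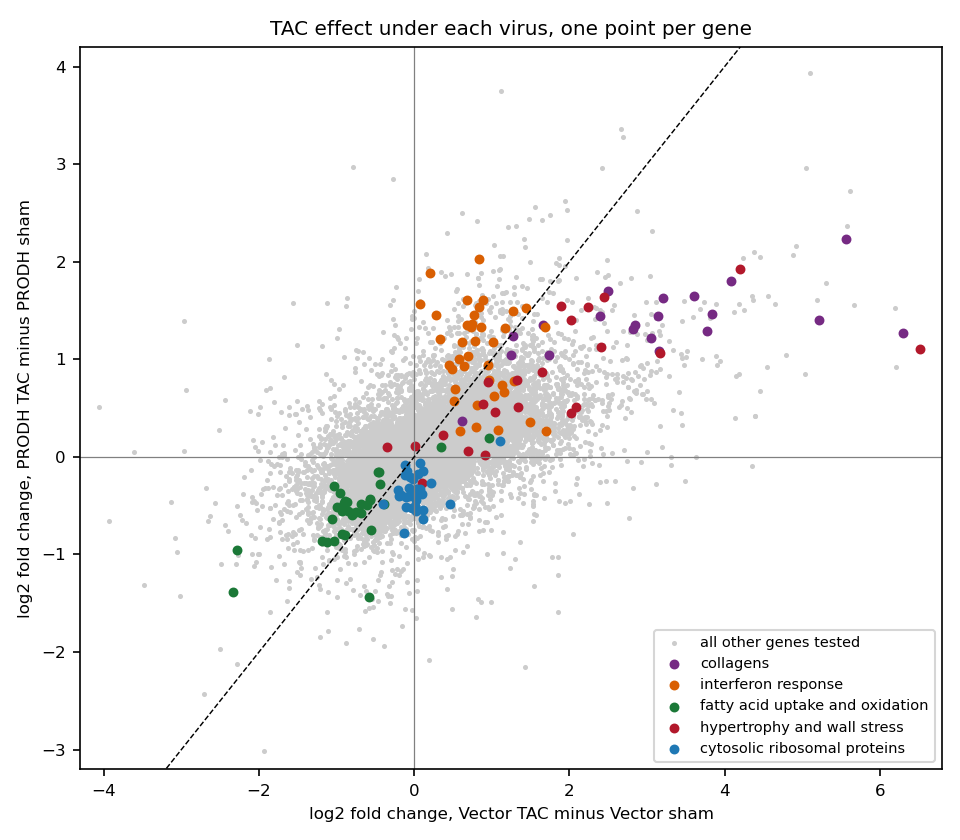
Log2 fold change of each tested gene under the PRODH virus (vertical axis) against that under the vector (horizontal axis), with 5 gene lists in colour and equal change as the dashed line; 9 genes lie outside the axes. Collagen and hypertrophy genes lie mostly below the line on the right, interferon genes on both sides of it, and ribosomal protein genes below 0 on the vertical axis near 0 on the horizontal one, where library size alone or the length trend taken out puts their median at -0.01 and -0.05.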

How the data were processed

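RNA of adult mouse cardiomyocytes was sequenced in 16 libraries from a SMARTER mRNA-Seq kit, per the labels' protocols. The authors deposited estimated counts per gene model, which need not be whole, with a length for each model. For the aligner, the counting tool, the build and the annotation no name was found; they were not given in the sources used here. Groups come from the labels, and replicate libraries of PRODH TAC and PRODH sham differed beyond sampling noise, with a chi-square per gene of 2.87 to 15.

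Counts were rounded to whole numbers and genes kept by filterByExpr (minimum count 10, minimum total 15). Libraries were scaled by TMM, and edgeR's quasi-likelihood test was fitted on all 16 libraries and 4 groups, with Benjamini-Hochberg adjustment over 14066 genes and a threshold of 0.05. Fold changes use a prior count of 0.125. R 4.3.3, edgeR 4.0.16, limma 3.58.1, DESeq2 1.42.0 (as an alternative) and the R package data.table (1.17.8) were used. The fit was tested on simulated data.

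The lists and members were chosen with earlier results of these data known. Genes were named from landmark genes, the 10 largest rises and falls with a mean of at least 5 CPM and groups that do not overlap, up to 5 members of each list with the smallest p, and the extremes and smallest p of the difference between the arms, and the text names part of them. The alternatives were other scalings, filters and tools, the 8 AAV9-PRODH libraries alone, mitochondrial genes left out, a replicate block, each library left out and, chosen after seeing the data, the length trend taken out. Promoters were read from RefSeq (GRCm38.p6) and searched on both strands.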

Additional observations from a re-analysis of the deposited data

Results flagged for a closer look

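For 3764 genes the change after TAC differed between the PRODH and the Vector arm by the edgeR test of the difference, and the values below are log2 differences of the TAC effects, PRODH minus Vector, of the genes named in the text.

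Among genes that rose under PRODH the difference was below 0, so that the change was lower under PRODH than under the vector, at -0.81 for Acta1, -0.34 for Ankrd1, -2.09 for Bgn, -2.10 for Ccn2, -0.47 for Cd34, -2.90 for Cilp, -0.80 for Col15a1, -2.48 for Col1a1, -2.37 for Col1a2, -1.58 for Col3a1, -2.29 for Col8a1, -5.30 for Comp, -1.01 for Fbn1, -1.64 for Fstl1, -1.13 for Igtp, -1.38 for Loxl2, -1.28 for Igfbp7, -3.22 for Ltbp2, -1.54 for Lum, -2.42 for Mfap4, -2.64 for Mfap5, -2.16 for Mmp2, -5.41 for Myh7, -2.39 for Nmrk2, -2.27 for Nppa, -0.70 for Nppb, -2.28 for Postn, -0.78 for Sparc, -0.87 for Tgfb3 and -3.52 for Thbs4. It was above 0 at 1.27 for Ccne2, 1.01 for Cdk1, 0.46 for Cldn5, 1.65 for Ddx60, 1.68 for Ifi44, 1.19 for Ifit1, 0.94 for Ifit2, 0.88 for Irf7, 1.00 for Mest, 1.20 for Mki67, 0.66 for Myh11, 0.88 for Myl4, 0.92 for Myl7, 0.85 for Sln, 1.15 for Top2a, 0.64 for Ttn and 0.72 for Usp18.

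Among genes that fell under PRODH the difference was below 0 at -0.94 for Bhlhe40, -2.47 for Ciart, -1.05 for Dbp, -0.43 for Idh2, -1.29 for Ier3, -0.36 for Myl2, -0.47 for Nr1d1, -2.41 for Per2 and -0.65 for Rplp2. It was above 0 at 0.32 for Acaa2, 0.94 for Acot1, 0.40 for Aldh4a1, 0.77 for Atp2a2, 0.45 for Fgf16, 0.88 for Hsph1, 0.59 for Kcnh2, 0.41 for Kcnip2, 0.70 for Kcnj2, 1.65 for Kcnv2, 2.03 for Klhl33, 0.33 for Suclg1 and 1.33 for Ucp3. Among genes whose change under PRODH was not called it was -1.16 for C1qb, 1.74 for Gpr22, 0.48 for Myh6 and 0.56 for Prodh. The call for Cldn5 was lost without PRODH TAC library 2 or 4, PRODH sham library 3, Vector TAC library 1, 2 or 4 or Vector sham library 2 or 3. The call for Fgf16 was lost without PRODH TAC library 1 or 3 or Vector TAC library 1, 2 or 3, or with no filter on low counts.

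Single libraries stood apart from the other 3 of their group for 8 of 196 groups of values looked at, and chance alone marks about 1 group in 20. These were 28.9 CPM for Hsph1 in PRODH TAC library 1, 37.3 CPM for Igtp in PRODH TAC library 2, 13.8 CPM for Klf15 in PRODH TAC library 3, 629.7 CPM for Tcap in PRODH TAC library 4, 44.9 CPM for Bgn in PRODH sham library 3, 2.74 CPM for Mki67 in PRODH sham library 2, 139 CPM for Nppa in PRODH sham library 4 and 307 CPM for Pink1 in PRODH sham library 4. No cause was tested for any of them.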

How the results depend on the processing

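For the PRODH arm, 4925 genes were called, against 8186 under library size alone, which moved the median of all genes to 0.40. The other alternatives that kept all libraries called 3956 (length trend taken out) to 4956 (replicate block), with 4695 by DESeq2, and the 8 AAV9-PRODH libraries alone gave 5378. Without 1 library the test called 3916 to 5161 genes under PRODH, 7389 to 8094 under the vector and 3207 to 4110 for the difference. Under library size alone the change turned to 0.25 for Myh6 and 0.36 for Prodh in the PRODH arm, and to 0.086 for Idh2, 0.03 for Myl2 and 0.22 for Rplp2 in the Vector arm. With the length trend taken out Ttn was at -0.10 in the PRODH arm. The cause of these turns was not tested. Of 2447 values of the 98 named genes in the PRODH arm, 2406 kept their direction and side of the threshold, 16 lost and 10 gained the call, 3 turned direction as given above, and 12 of Cd4, Gpr22 and Prodh turned with no call in either fit. These counts do not measure stability, since many of the genes were named for a small p or large change in this comparison. Most alternatives also left out only 1 library. Under library size alone 13 of the 98 lost and 1 gained the call, and 2 turned direction. With replicate number as a block 4956 genes were called under PRODH and 3872 for the difference. The deviations of same-numbered TAC and sham libraries correlated at 0.034, 0.028, -0.036 and 0.089. The labels do not say whether the numbers pair the libraries, and values from 4 libraries a group cannot settle it. The 4 libraries a group and counts near the filter limit the precision of low genes such as Cd4 and Comp.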

Other observations

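Of all tested genes 17.2% rose and 17.8% fell under PRODH. Among secreted growth factors and Wnt antagonists, 12 rose and 5 fell of 29, and 19 rose and 4 fell under library size alone. The share of falls was near that of all tested genes. Igfbp7, which binds insulin-like growth factors, averaged 62.4 ± 2.67 CPM in PRODH TAC and 32.6 ± 3.40 CPM in PRODH sham (SD, n = 4; 0.94 ± 0.11). Fgf16, a growth factor gene of the heart, averaged 5.06 ± 0.433 CPM in PRODH TAC and 9.09 ± 0.958 CPM in PRODH sham (-0.84 ± 0.11). In mitochondrial dynamics and mitophagy, 0 rose and 8 fell of 17, and 8 rose and 1 fell under library size alone. Pink1, a kinase that marks damaged mitochondria, was at -0.65 ± 0.07. Among genes of NAD and creatine metabolism, 3 rose and 9 fell of 21, and 8 rose and 0 fell under library size alone. Here the share of rises was near that of all tested genes.

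The last lists held calls in both directions, where 17.2% of all tested genes rose and 17.8% fell. Among targets of ATF4, the factor of the amino acid stress response, 5 rose and 2 fell of 20, and 13 rose and 0 fell under library size alone, with 1 fall without PRODH TAC library 2 or 3 or PRODH sham library 1, 2 or 4. Among p53 targets and cell cycle inhibitors, 4 rose and 3 fell of 22, shares near those of all tested genes, and 16 rose and 0 fell under library size alone, with 1 fall without PRODH TAC library 2 or 4 or PRODH sham library 2, 3 or 4, and 7 rises and 1 fall with the length trend taken out. Among glucocorticoid targets, 4 rose and 5 fell of 15, and 9 rose and 1 fell under library size alone, with 2 falls without PRODH sham library 1 and 3 with the length trend taken out.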
